A study of Mus musculus with 10 samples.

Results

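Among the regions that differed in sperm DNA methylation between the offspring of arsenic-exposed and control dams, 7 were assigned to genes of growth factors, hormones and their receptors: Egf, Wnt10a, Inhbb, Prok1, Stc2, Fgfr2 and Oxtr. They were selected by gene name from the authors' table of differentially methylated regions (DMRs), in which each of the 7 genes had 1 row, so that they made up 7 of 577 regions. The genes were picked with their methylation differences known, and every row had already passed the authors' threshold for the same contrast. The values of these regions are therefore a description, and no test was run on them. The table was made from 10 sperm samples of C3H/HeN males aged 17 to 19 weeks. The arsenic group consisted of 5 F1 males, the first generation born to dams that drank sodium arsenite in water during gestation. The control group consisted of 5 F1 males born to dams given tap water, and the males of each group came from different litters. The method was reduced representation bisulfite sequencing (RRBS). The enzyme MspI, which cuts at CCGG, enriches CpG-rich DNA, and bisulfite turns unmethylated cytosine into uracil, read as thymine. The samples were labelled as purified sperm, which has no marker in a table of this kind, so the cell type could not be checked against the data. Gene expression was not measured in these samples.

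All differences below are the authors' region means in percentage points of methylation, arsenic minus control. A hypoDMR was lower in the arsenic group and a hyperDMR was higher. A DMC is a CpG that by itself differed by at least 10 points and also passed the authors' q-value cutoff in a logistic regression. The table gives 1 value per region for both groups together. The level in each group, the spread among the 5 males and the number of reads could not be given, apart from the authors' minimum of 10 reads per CpG in each sample.

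The 7 gene products carry signals between cells. Egf, Wnt10a, Inhbb, Prok1 and Stc2 encode secreted proteins, whereas Fgfr2 encodes a receptor tyrosine kinase for fibroblast growth factors and Oxtr the G protein-coupled receptor for oxytocin. In mature sperm the DNA is tightly packed and transcription is largely silent. Methylation there is mostly a record of what was laid down in the male germ line, where methyl groups are erased in the primordial germ cells of the fetus and placed anew before birth.

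The sequences below show how different the 7 regions were in kind. They were read from the reference assembly GRCm38 (mm10, from a C57BL/6J mouse), so differences in the C3H/HeN strain are not seen. Capitals mark the CpG sites, and a lone capital at an end belongs to a CpG cut by the edge of the region. The strand is that of rising coordinates except for Egf, which is printed in the direction of transcription and only over its coding part, from the start codon on. Of the Oxtr region the first 300 of 349 bases are printed.
Egf, chr3:129754871-129754964, minus strand: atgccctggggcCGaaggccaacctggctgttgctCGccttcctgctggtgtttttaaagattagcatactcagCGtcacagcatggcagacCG
Wnt10a, chr1:74793489-74793551, plus strand: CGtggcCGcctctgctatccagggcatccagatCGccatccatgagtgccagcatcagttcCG
Inhbb, chr1:119444027-119444153, plus strand: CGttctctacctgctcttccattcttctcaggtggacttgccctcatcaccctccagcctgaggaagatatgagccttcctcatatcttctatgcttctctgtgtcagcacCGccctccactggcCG
Prok1, chr3:107237300-107237363, plus strand: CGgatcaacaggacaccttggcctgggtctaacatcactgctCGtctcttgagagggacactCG
Stc2, chr11:31331748-31331863, plus strand: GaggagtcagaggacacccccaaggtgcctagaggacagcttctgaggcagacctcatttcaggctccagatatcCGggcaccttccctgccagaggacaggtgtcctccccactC
Fgfr2, chr7:130369477-130369627, plus strand: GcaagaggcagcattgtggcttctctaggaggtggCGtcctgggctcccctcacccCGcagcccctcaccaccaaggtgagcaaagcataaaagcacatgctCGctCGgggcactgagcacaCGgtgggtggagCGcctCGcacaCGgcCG
Oxtr, chr6:112563649-112563948, plus strand: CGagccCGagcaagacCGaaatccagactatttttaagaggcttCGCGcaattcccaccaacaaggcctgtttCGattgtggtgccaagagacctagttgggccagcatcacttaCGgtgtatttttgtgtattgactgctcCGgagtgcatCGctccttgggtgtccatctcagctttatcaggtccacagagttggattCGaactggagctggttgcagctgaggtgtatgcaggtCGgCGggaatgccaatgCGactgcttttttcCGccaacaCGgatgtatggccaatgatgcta

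Egf encodes the precursor of epidermal growth factor, a ligand of the EGF receptor. Its region, chr3:129754871-129755005, had higher methylation in the arsenic group by 10.8 points, the smallest difference of the 7. It contained 8 listed CpGs, of which 3 were DMCs. The deposited annotation placed it in exon 1 of 24, 384 bp downstream of the transcription start site (TSS). In the RefSeq annotation of GRCm38.p6, 94 of its 135 bases were coding, from the start codon to codon 32, and the other 41 bases were 5′ untranslated. The region also lay within the span of 6330410L21Rik, a long noncoding RNA (lncRNA) model on the opposite strand.

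Wnt10a encodes a secreted WNT ligand known for its part in the development of teeth, hair and other ectodermal structures. Its region, chr1:74793489-74793551, had lower methylation in the arsenic group, with a difference of -15.02 points and 1 DMC among 4 listed CpGs. The region lay in exon 2 of 4, 1501 bp downstream of the TSS. All 63 bases were coding, covering codons 80 to 101 of the 418 codons that the reading frame has with its stop. It was thus the only one of the 7 regions that was wholly protein-coding. An antisense lncRNA model, Gm32099, spanned it, and Wnt6, a neighbouring WNT gene, ended 8167 bp away.

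Inhbb encodes the beta B subunit shared by inhibin B, which lowers the secretion of follicle-stimulating hormone, and by activins, which raise it. Its region, chr1:119444027-119444153, differed by -11.1 points, with 1 DMC among 4 listed CpGs. It was annotated as intergenic, 21842 bp upstream of the TSS. RefSeq nevertheless had noncoding models there. Gm33490 and Gm33575, lncRNA models on opposite strands, both overlapped the region, and the 5′ end of Gm33490 was 54 bp from the middle of the region.

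Prok1 encodes prokineticin 1, a secreted peptide also called endocrine gland-derived vascular endothelial growth factor. Its region, chr3:107237300-107237363, was the other one with higher methylation in the arsenic group, by 11.8 points. Of 4 listed CpGs, 2 were DMCs. It was located in intron 1 of 2, 1321 bp downstream of the TSS, and no other RefSeq model overlapped it.

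Stc2 encodes stanniocalcin 2, a secreted glycoprotein of the stanniocalcin hormone family. The region assigned to it, chr11:31331748-31331863, had lower methylation in the arsenic group by 17.1 points, with 1 DMC among 3 listed CpGs. It was the only one of the 7 in a repeat, where 44.4% of all 577 regions had a repeat in the detailed annotation. For the Stc2 region this annotation named an L1Md_F2 element, a LINE retrotransposon. In the reference, 100% of the region's bases were repeat-masked. The distance to the TSS was 38256 bp, and since Stc2 runs on the minus strand the region lay past its 3′ end, with a gap of 27578 bp. After in silico bisulfite conversion the central 100 bases had 12 placements in the genome on the top strand and 5 on the bottom strand when up to 3 mismatches were allowed, and 1 when none was. The 12 placements were spread over 9 chromosomes. Whether reads of other copies entered the value of this region was not tested.

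Fgfr2 had the largest difference of the 7 genes. Its region, chr7:130369477-130369627, was lower in the arsenic group by 18.8 points, and 8 of its 10 listed CpGs (80%) were DMCs. In the whole table it ranked 16 by absolute difference and 15 among the 494 hypoDMRs, and only 4 other regions had an equal or higher share of DMCs. None of these 4 had 10 or more listed CpGs. Both cutoffs, 80% and 10, are the Fgfr2 region's own values, so its standing alone under them was set by their choice. The region was G+C-rich (64.9%) with 10 CpG sites in 151 bp, 7 of them in the last 50 bases as printed above. It did not overlap any RefSeq model and was 102744 bp upstream of the Fgfr2 TSS. The nearest model was the lncRNA Gm33771 at 5141 bp, followed by the pseudogene Gm5903 at 15073 bp, and Ate1, which encodes an arginyltransferase, was the nearest protein-coding gene at 21866 bp. GENCODE M21 differed here, since its Fgfr2 gene (chr7:130162451-133123350) is extended far upstream and includes the region.

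The Oxtr region, chr6:112563649-112563997, differed by -11.6 points. It was the longest of the 7, with 349 bp and 27 listed CpGs, and its 9 DMCs were surpassed by 1 region of the table only. The absolute difference itself ranked 340 of 577. It was annotated as intergenic, 73998 bp upstream of the TSS. In RefSeq and GENCODE it lay in Gm15519, a processed pseudogene, which is a copy of a messenger RNA inserted into the genome. The region aligned over its 349 bases with the coding sequence of Arfgap2, a gene for a GTPase-activating protein of ARF small GTPases, and differed at 3 bases (99.1% identity). The Arfgap2 sequence aligned with the 300 bases of Oxtr printed above is given here to show how close both are, with the bases that differ in capitals.
Arfgap2 transcript, coding bases 8 onward, aligned with the first 300 bases of the Oxtr region: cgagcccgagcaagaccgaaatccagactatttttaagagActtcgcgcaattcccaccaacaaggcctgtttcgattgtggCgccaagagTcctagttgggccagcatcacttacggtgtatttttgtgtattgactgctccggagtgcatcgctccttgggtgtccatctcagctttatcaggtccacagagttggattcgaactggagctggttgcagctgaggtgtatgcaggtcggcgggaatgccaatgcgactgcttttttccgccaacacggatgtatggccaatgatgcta

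All 19 CpG sites of the Oxtr region are also CpG in the Arfgap2 transcript, which has 1 more over this stretch, 20 in all. Arfgap2 is on another chromosome, chr2:91265115-91277371, where the same sequence is split by introns into 4 matching pieces of 66, 123, 76 and 93 bp with 0 to 2 mismatches each. The central 100 bases of the Oxtr region had 1 placement in the converted genome at up to 3 mismatches, but this window spans a junction between pieces and does not count a read that falls within 1 piece. Whether reads from Arfgap2 were mapped here was not tested. The next most similar gene, Arfgap3, had 71.7% identity. Among all 383 intergenic rows of the table, 16 overlapped a RefSeq pseudogene.

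**Figure D1:**
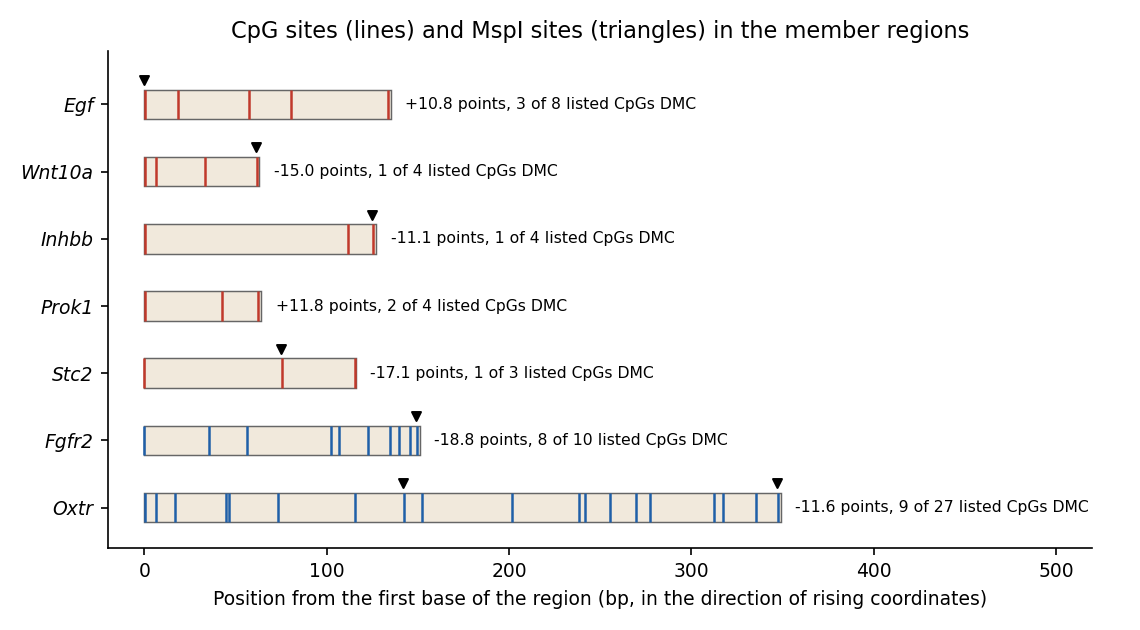
Positions of CpG sites (vertical lines) and MspI sites (triangles) along the 7 regions, in bp from the first base of each region, with the methylation difference (arsenic minus control, percentage points) and the number of DMCs at the right. Secreted ligands and hormones have red lines and receptors have blue lines. The CpGs of Fgfr2 crowd at one end, and the Oxtr region holds 19 sites against 3 to 10 in the others.

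Of the 7 regions, 5 were hypoDMRs (Wnt10a, Inhbb, Stc2, Fgfr2 and Oxtr) and 2 were hyperDMRs (Egf and Prok1). In the table as a whole 85.6% of the regions were hypoDMRs. Both receptor genes were hypoDMRs, and the 5 ligand or hormone genes were divided into 3 hypoDMRs and 2 hyperDMRs. The median absolute difference was 11.8 points in the 7 regions, with a range of 10.8 to 18.8, and 12.2 points in the other 570 regions, whose quartiles were 10.9 and 13.7. Fgfr2, Stc2 and Wnt10a were above the upper quartile of the other regions, ranking 16, 33 and 83 of 577. Prok1, Oxtr, Inhbb and Egf were below the median of the other regions, at ranks 324, 340, 395 and 439. With no spread between the males, the order of these regions cannot be told from error, whatever the gap between them.

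Both regions with higher methylation in the arsenic group were close to a TSS. Egf, Prok1 and Wnt10a were within 2000 bp downstream of their TSS, 3 of 7, where 7.28% of all regions were this close. Of these 3, Egf and Prok1 were higher in the arsenic group and Wnt10a was lower. The 4 regions farther away, at 21842 to 102744 bp, were all lower. Over the table, 10 of the 42 regions within 2000 bp were hyperDMRs, Egf and Prok1 included, and 462 of the 535 farther regions were hypoDMRs. The genes were picked with distance and direction known, and this split was not tested.

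**Figure D2:**
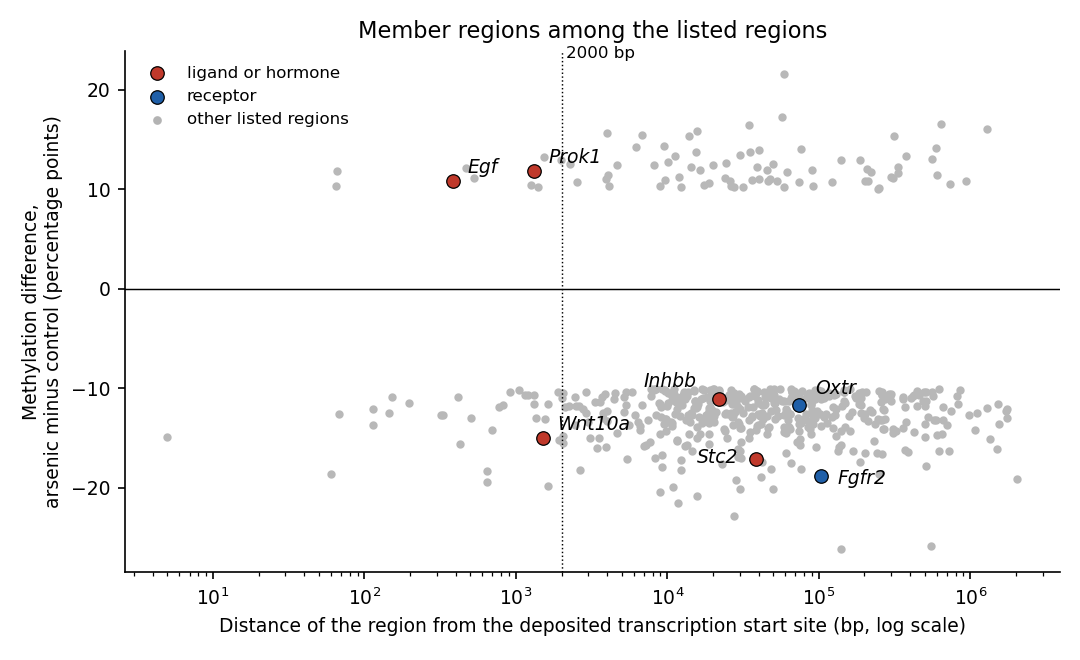
Methylation difference (arsenic minus control, percentage points) against the absolute distance to the deposited TSS (bp, log scale) for the 7 regions, coloured by role, and the other listed regions with a gene (grey). Egf and Prok1 lie above 0 and left of the dotted line at 2000 bp, Wnt10a lies left of it and below 0, and the 4 others lie right of it and below 0.

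The gene names themselves rest on the annotation used. Each of the 7 names belongs to the nearest curated RefSeq TSS (accession class NM or NR), as was the case for 502 of 577 rows. When every RefSeq model was allowed, predicted lncRNAs and pseudogenes included, Egf, Wnt10a, Prok1 and Stc2 kept the same gene. The nearest 5′ end then belonged to Gm5903 for the Fgfr2 region (15148 bp), Gm33490 for Inhbb (54 bp) and Gm15519 for Oxtr (241 bp). Of all rows, 237 kept their gene under this rule. In RefSeq, only Egf, Wnt10a and Prok1 thus had a region inside the gene they were named for. The 4 other names give the gene of the nearest curated TSS, which is not always the nearest gene. Counted to the edge of the gene, Ate1 (21866 bp) was nearer to the Fgfr2 region than Fgfr2 (102669 bp). Rad18 (55854 bp) was likewise nearer to the Oxtr region than Oxtr (72614 bp).

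DMC numbers varied among the 7 regions. Fgfr2 and Oxtr, with 8 and 9 DMCs, were 2 of the 5 regions in the table with 8 or more. Egf had 3 and Prok1 had 2, and the regions of Wnt10a, Inhbb and Stc2 rested on a single DMC, as 372 of all 577 regions did. Among these 3, Stc2 and Wnt10a came next after Fgfr2 in absolute difference, so that a large mean difference and a large number of DMCs went together in Fgfr2 alone. Regions with 3 or 4 listed CpGs, namely Wnt10a, Inhbb, Prok1 and Stc2, are averages over few positions. Such small regions made up 211 of all 577 (36.6%).

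The number of listed CpGs is not the number of CpG sites. The Oxtr region has 19 CpG sites in the reference and 27 listed CpGs, and Egf has 5 sites and 8 listed CpGs. Inhbb and Prok1 have 3 sites and 4 listed CpGs each. In none of the 576 regions on assembled chromosomes was the listed number above the number of CpG cytosines counted on both strands (38 for Oxtr, 10 for Egf, 6 for Inhbb and Prok1). Listed CpGs and DMCs may thus include both cytosines of 1 site, and the 9 DMCs of Oxtr and 8 of Fgfr2 are not necessarily as many separate sites. The 10 listed CpGs of Fgfr2, for instance, could be drawn from 19 cytosines.

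**Figure D3:**
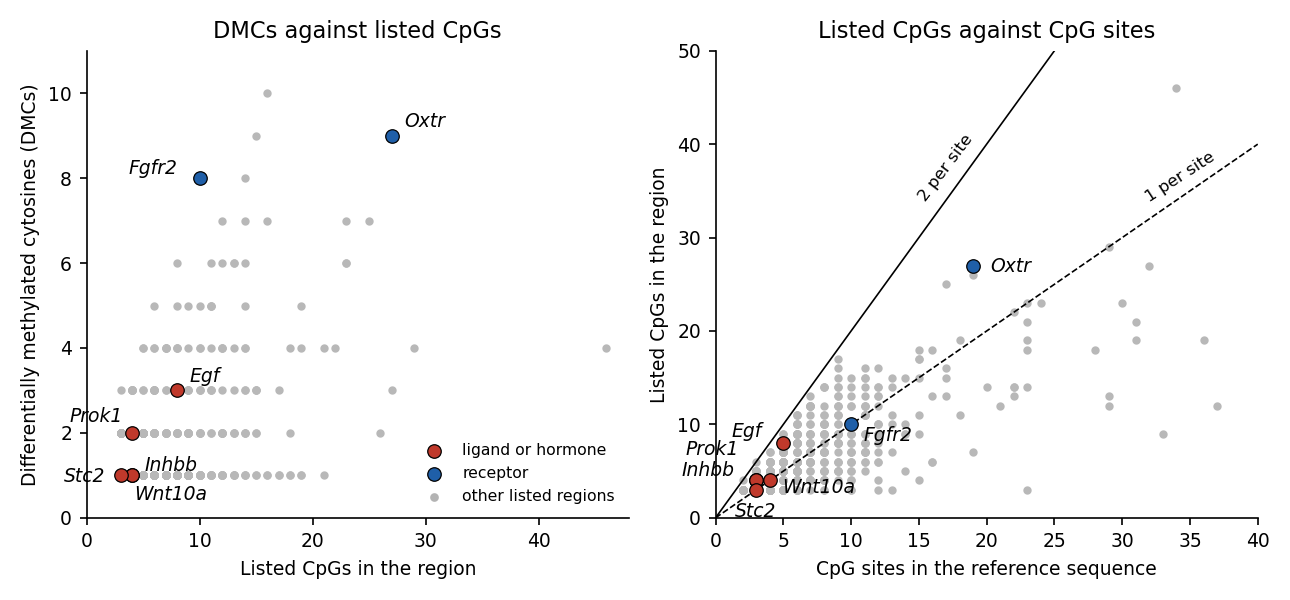
Left, DMCs against listed CpGs per region; right, listed CpGs against CpG sites in the reference sequence, with lines at 1 and 2 listed CpGs per site. Each point is a region, the 7 genes are coloured by role, grey points are the other regions, and Wnt10a and Inhbb overlap at 4 listed CpGs and 1 DMC in the left plot. Oxtr and Fgfr2 stand high in the left plot with 9 and 8 DMCs, and Oxtr, Egf, Inhbb and Prok1 (the last pair at the same point) lie between the lines in the right plot.

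In base composition the 7 regions were not unlike the other 569 regions on chromosomes. Their median G+C content was 56.3% (51.9 to 64.9%), beside 54.1% in the other regions (quartiles 49.8 and 58.9%). Fgfr2, Wnt10a and Stc2, the 3 of the 7 with the largest differences, had the highest G+C content of the 7, at 64.9, 61.9 and 60.3%. Whether G+C content goes with the size of the difference over the other regions was not tested. CpG density did not follow the same order, with 6.62 and 6.35 sites per 100 bp in Fgfr2 and Wnt10a but 2.59 in Stc2. The MspI fragments that hold the midpoints of the regions were 96 to 221 bp long, with a median of 173 bp, beside 162 bp in the other regions. Prok1 had no MspI site in the region, and the others had 1 or 2, inside or at the edge. The Stc2 and Oxtr regions were cut by a site well inside them and so spanned more than 1 fragment. The 100 bases centred on the midpoint had a single placement in the converted genome at up to 3 mismatches for every region but Stc2. For Wnt10a and Prok1, which span 63 and 64 bp, this window includes flanking sequence.

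Other listed regions were rarely close. The nearest listed region was 154 kb from Stc2, 213 kb from Egf, 354 kb from Inhbb, 938 kb from Fgfr2, 1.45 Mb from Wnt10a, 2.36 Mb from Oxtr and 5002 kb from Prok1. The nearest neighbours of the 5 hypoDMRs were hypoDMRs in all but Wnt10a, whose neighbour differed by 10.3 points. Of all 577 regions 85.6% were hypoDMRs, so most neighbours of any region are. Egf, a hyperDMR, had as neighbours within 1 Mb a pair of hypoDMRs that differed by -17.9 and -12.7 points, whereas the nearest neighbour of Prok1 was a hyperDMR (10.2 points).

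The table also held regions of other genes from the pathways of the 7 genes. Of 284 genes in 9 lists of ligands and receptors, 15 were the named gene of at least 1 listed region, and without the 7 genes 8 of 277 (2.89%) were. For comparison, 433 of the 21900 protein-coding RefSeq genes (1.98%) were named. The lists were drawn up with earlier results of these data known, and the shares were not tested against each other. Nor are the lists complete. Lif (10.9 points) and Csf2ra (-10.9 points), for instance, had a listed region but are in none of them.

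Among the 29 genes for fibroblast growth factors and their receptors, Fgfr2 was the only one with a listed region. The EGF family of 15 genes had Nrg3, which encodes the ligand neuregulin 3, beside Egf. Its region differed by -10.4 points, opposite in sign to that of Egf, and lay in an IAPLTR2a long terminal repeat. Among 34 WNT ligands and receptors, Wnt4, which encodes a ligand needed in female reproductive tract development, had a region in its last exon that differed by -12.2 points, over 46 listed CpGs with 4 DMCs. Wnt4 and Wnt10a were both lower in the arsenic group, and both regions were exonic. Of all 577 regions, 85.6% were lower and 58 (10.1%) were annotated as exon.

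In the activin, inhibin, BMP and TGF-beta list of 48 genes, Bmp7, which encodes bone morphogenetic protein 7, had a pair of regions. One, 77260 bp from the TSS, differed by -11.1 points, and the other, 121784 bp from it, by 10.7 points. Both were intergenic, and their directions were opposite. Among 4 prokineticin genes, 2 stanniocalcin genes and 6 genes for oxytocin, vasopressin and their receptors, only Prok1, Stc2 and Oxtr had a listed region.

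Of 51 other growth factor genes, Gfra2, which encodes a receptor for GDNF family ligands, had an intronic region that differed by 11.8 points. Over the whole table, 494 of 577 regions (85.6%) were lower in the arsenic group. Of 95 other genes for peptide hormones and their receptors, 4 had a region and all were lower in that group. These were Tac1 (-11.6 points), the precursor gene of substance P, Agtr1a (-11.2 points), a receptor for angiotensin II, Adcyap1 (-10.1 points), the precursor gene of the neuropeptide PACAP, and Mc2r (-10.1 points), the receptor for corticotropin. All 4 regions were intergenic, as were 383 of all 577 regions (66.4%). The Tac1 and Adcyap1 regions lay in L1Md_F3 and L1Md_F2 elements, the family that also held the Stc2 region. Regions of genes outside the lists, such as Vgll3 and Dnajc6, lay in L1Md_F2 elements too. Of all 577 regions 44.4% had a repeat, and the share of this family was not counted. The 8 further genes had 9 regions, with 7 lower and 2 higher in the arsenic group.

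**Figure D4:**
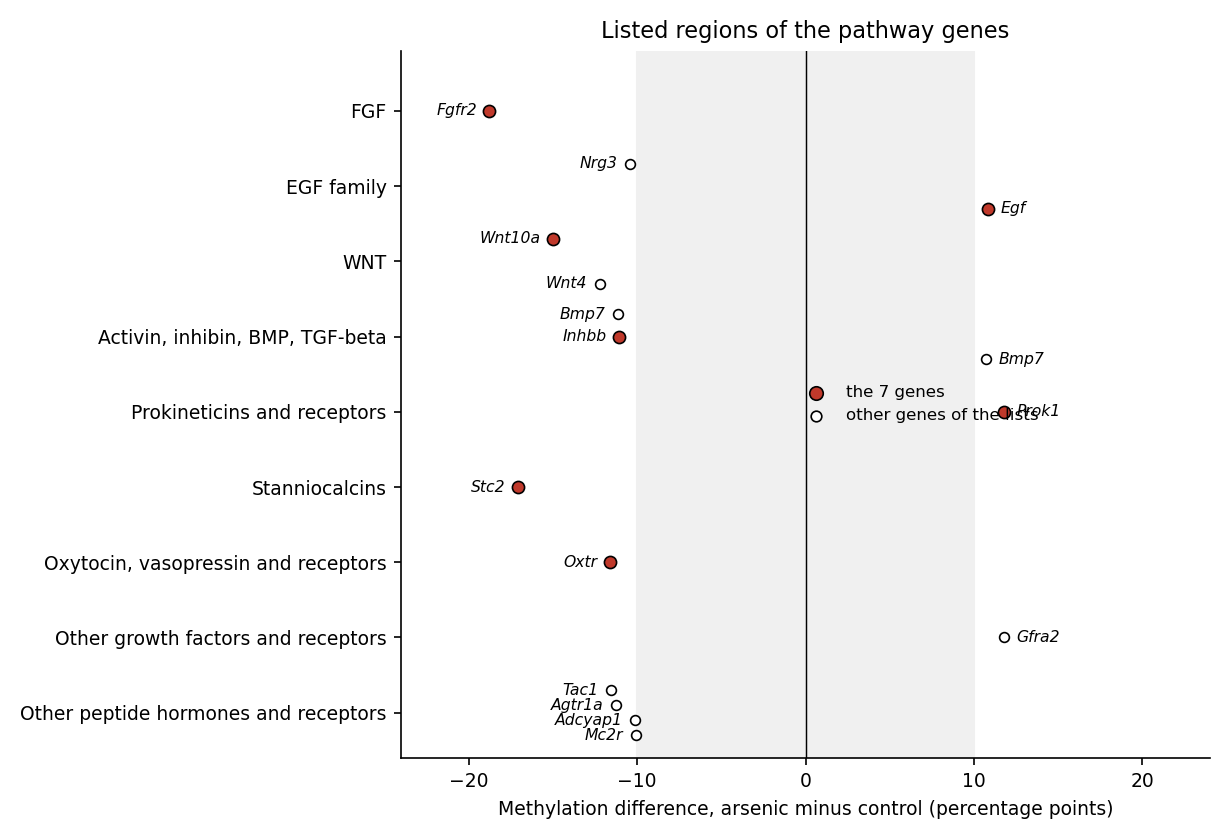
Methylation difference (arsenic minus control, percentage points) of each listed region whose gene is in one of the 9 lists, 1 row per list. Filled points are the 7 genes and open points the other genes of the lists, and the grey band marks differences below 10 points, which the table does not list. Of 16 regions, 12 lie left of 0 and 4 right of it (Egf, Prok1, Gfra2 and 1 of the Bmp7 regions).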

How the data were processed

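In the authors' pipeline, adapters were removed by Trim Galore, Bismark aligned reads to mm10, and CpGs with a coverage of at least 10 in all samples were kept. DMCs were called with methylKit and DMRs (at least 3 CpGs, at least 1 DMC, over 10 points) with eDMR. HOMER assigned the nearest TSS, the gene structure and the repeat. The deposited table holds the methylation difference as a signed score in percentage points, counts of CpGs and DMCs, and the authors' p-values and q-values, which were not used. No value of a single animal was used.

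Regions were read from GRCm38.p6, the build of mm10: all 576 on assembled chromosomes start at a base of a CpG. Models came from RefSeq and GENCODE M21. The Oxtr region was compared with transcripts by BLAST 2.17.0. Placements were counted for the 100 bases centred on each region's midpoint, flanks included where a region is shorter, after conversion of both strands, in Python 3.11.15 with numpy 2.4.6, tested on simulated data. Members, gene lists and alternatives were chosen with earlier results of these data known. All regions of the 7 genes and of the listed pathway genes are named. Neighbouring genes are named by position only. Alternatives were thresholds on the difference, DMCs and CpGs, other distances and annotations.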

Additional observations from a re-analysis of the deposited data

How the results depend on the processing

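No paired analysis was possible because the table holds 1 difference per region for both groups and no value of a single animal, and for the same reason no male could be left out. Of the 7 regions, the 3 with a difference of at least 15 points all lost methylation. Their median was 17.1 points and 1 was within 2000 bp of a TSS. In the whole table, 84 of 577 regions (14.6%) had at least 15 points. Of all 577 regions, 85.6% lost methylation, 7.28% were within 2000 bp of the TSS and 44.4% lay in a repeat. Among those of the 7 with at least 2 DMCs, 2 of 4 lost methylation and 0 lay in a repeat. Among those of the 7 with at least 5 listed CpGs, 2 of 3 lost methylation, 1 was near a TSS and 0 lay in a repeat. The shares of the whole table under these same thresholds were not counted. Fewer regions are left under these thresholds. Within 1000 bp of a TSS there was 1 of the 7 regions. Within 2000 bp of the 5′ end of any RefSeq model there were 5 of the 7, an alternative chosen after seeing the data. Of all 577 regions, 97 (16.8%) were within 2000 bp of such an end. With at least 2 DMCs required, 8 of the 284 pathway genes kept a region, and without the 7 genes 8 of 277 had one, which was also chosen after seeing the data. The other 21 of 33 alternatives moved a count by no more than 1.5 times or the median by less than 3.21 points, the SD over the 7 regions. Leaving out each gene in turn gave medians of 11.7 to 13.4 points. Read depth, and with it the precision of each difference, is unknown.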

Other observations

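The excess of listed CpGs over CpG sites was seen beyond the 7 genes, in 229 of the 576 regions on assembled chromosomes. The listed number was above the number of CpG cytosines on both strands in 0 of them. The minimum of 3 CpGs per DMR can therefore be met by fewer than 3 CpG sites.

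Of the 383 regions annotated as intergenic, 65 overlapped a RefSeq gene model, among them the regions of Inhbb and Oxtr.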
